A study of Mus musculus with 12 samples.

Results

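The genes described here are the 33 collagen chains and 10 collagen-modifying enzymes on a list of 43 mouse symbols, found by matching the Ensembl identifier of each row of the deposited count files to GENCODE M21. All 43 had a row among the 54532 genes counted in each sample. The rule for membership is the gene's name and uses no measured value, although the list was drawn up with earlier results of these data known. The chains comprise 10 of the fibrillar collagens, 8 of the network-forming collagens (types IV and VIII), 3 of type VI and 1 of type VII, 6 of the FACIT collagens that sit on fibril surfaces, 3 with a transmembrane segment, and the 2 multiplexins (types XV and XVIII). The enzymes comprise 5 lysyl oxidases, 3 lysyl hydroxylases and the catalytic subunits of 2 prolyl 4-hydroxylases.

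Collagens are triple helices of polypeptide chains. Inside the cell, prolyl 4-hydroxylases act on proline residues and stabilize the helix, while lysyl hydroxylases act on lysine residues that later carry sugars or cross-links. Outside the cell, lysyl oxidases start the covalent cross-linking of the assembled chains. In the brain, type IV collagen is a core component of the basement membrane around vessels and below the pia, and fibrillar collagens are mostly made by leptomeningeal and perivascular cells.

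RNAseq was performed on brainstem progenitors of C57BL/6 pups, aged postnatal day 3 to 5 according to the labels, that carried Nestin TVA and a floxed p53 allele, and that were grown without serum in EGF and FGF2. The cells were infected with RCAS vectors expressing human *ACVR1* WT, human *ACVR1* R206H, *ACVR1* WT together with H3.1K27M, or *ACVR1* R206H together with H3.1K27M, with 3 samples in each of the 4 groups. The *ACVR1* gene encodes a BMP type I receptor and H3.1K27M is a mutant histone, and the study asked how they act alone and in combination. RCAS viruses enter only cells with the Tv-a receptor, here driven by the nestin promoter, all groups shared the floxed p53 allele with no Cre vector among the labels, and no group was without an *ACVR1* vector. The labels name no control virus in place of H3.1K27M, so that effects of the mutant histone and of a second virus cannot be told apart. They do not say that replicates came from separate cultures or litters. The methods of the study count lines from separate litters for other assays of these cultures without naming the RNAseq, and p values are therefore taken to measure only the spread between these samples. In RNA from whole cultures, fewer cells of a type and less RNA per cell cannot be told apart either.

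Total counts ran from 19315020 to 26456257 per sample. Levels are given as CPM (counts scaled to library size after TMM normalisation over the 12 samples), and levels of different genes are compared only as CPM per kb of exon. Reads assigned to mouse *Acvr1*, where reads of the human vector could also have been placed, were 53.5, 46.4 and 52.7 CPM in replicates 1, 2 and 3 of *ACVR1* WT and 114, 81.9 and 85.8 CPM with *ACVR1* R206H. With H3.1K27M they were 169.9, 162 and 364 CPM with *ACVR1* WT and 999, 561 and 1057 CPM with *ACVR1* R206H, so that the receptor count was higher with R206H than with WT in both backgrounds. *ACVR1* WT replicate 1 stood apart from the other two samples of its group: the biological coefficient of variation was 0.275 within *ACVR1* WT and between 0.0453 and 0.0594 within the other 3 groups. All 10 of the neural progenitor markers examined exceeded 1 CPM on average, against 5 of 12 fibroblast and leptomeningeal, 2 of 9 endothelial, 3 of 10 pericyte and smooth muscle, 4 of 7 microglial and 1 of 8 chondrocyte and osteoblast markers. Levels within the lists were uneven: *Prrx1* ran from 53.2 to 139 CPM, *Fbln1* from 31.8 to 53.8 CPM and *Thy1* from 20.6 to 28.5 CPM, whereas the fibroblast genes *Dcn* and *Lum* stayed at or below 0.411 and 0.57 CPM. Of the endothelial genes, *Flt1* reached 13.7 CPM and *Cldn5* stayed at or below 0.0374 CPM. No marker had 0 counts in all 12 samples.

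The level per length set the members apart before any comparison. Averaged over the 12 samples, the type IV chain *Col4a5* (43 CPM per kb) and the FACIT chain *Col9a3* (34.7) stood highest, followed by the lysyl hydroxylase *Plod1* (21.6), *Col16a1* (20.2), *P4ha1* (19.9), *Plod3* (19.8) and *Plod2* (16.5), and by the chains *Col5a2* (16.0), *Col4a6* (15.2) and *Col11a1* (14.3). The classic fibroblast collagens were low, with 0.387 CPM per kb for *Col1a1*, 0.131 for *Col1a2* and 0.141 for *Col3a1*. Levels of chains that can share a trimer were unequal: *Col5a2* exceeded *Col5a1* (2.86 CPM per kb), *Col11a1* exceeded *Col11a2* (0.833), and *Col9a3* exceeded *Col9a2* (3.30) and *Col9a1* (0.967). Within type IV, *Col4a5* and *Col4a6* lay above *Col4a1* (1.99) and *Col4a2* (0.865), which make a different trimer. Differences between groups are described next.

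**Figure D1:**
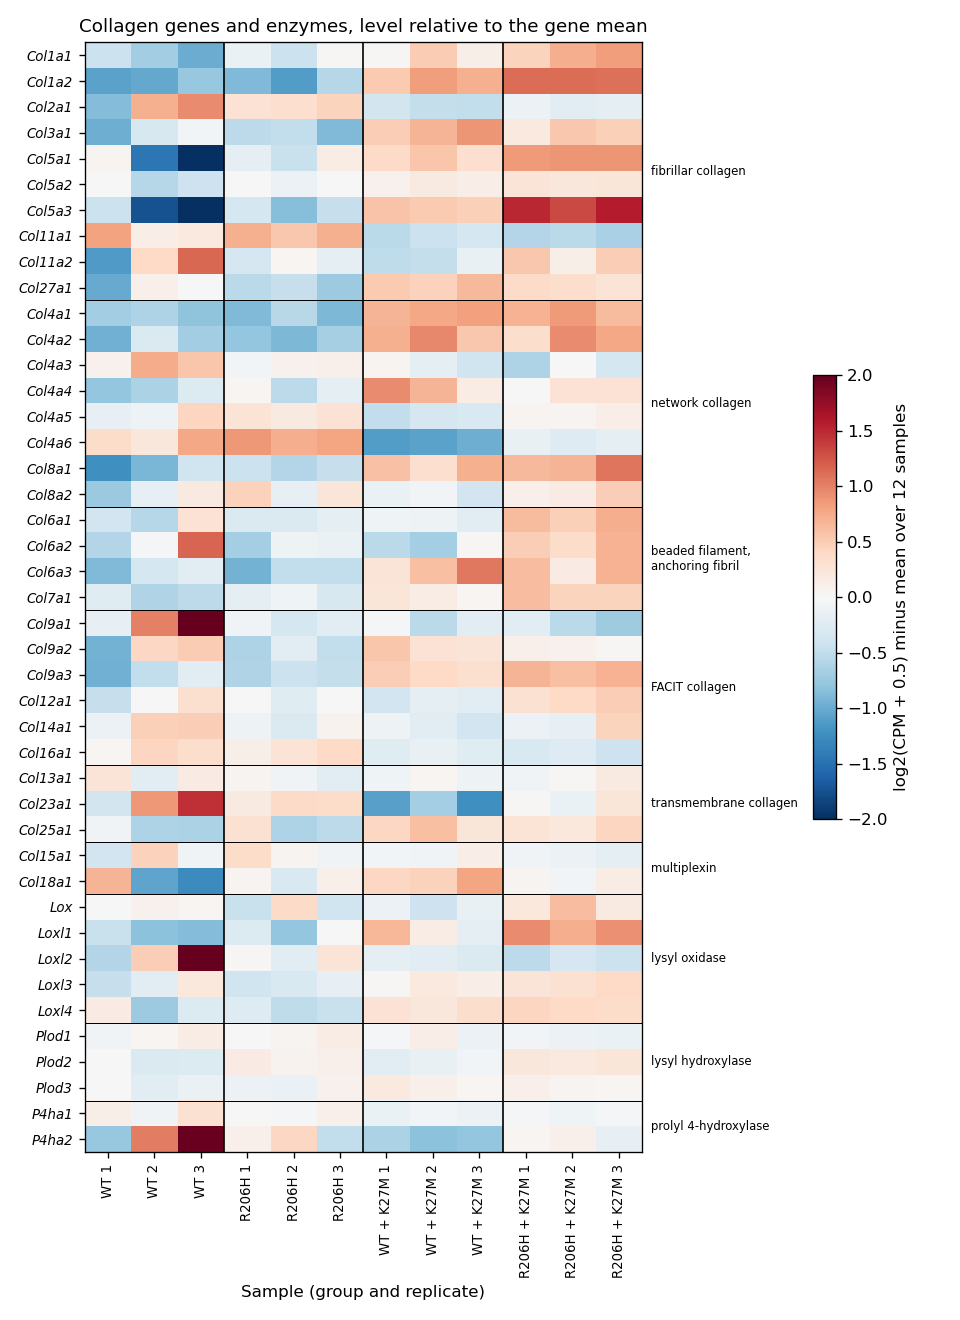
Level of each of the 43 genes (rows, grouped by role) in each of the 12 samples (columns; K27M stands for H3.1K27M), as log2(CPM + 0.5) minus the mean of that gene over the 12 samples. *Col1a2*, *Col4a1*, *Col4a2* and *Col8a1* are above their mean in all 6 samples with H3.1K27M, *Col4a6* and *Col11a1* are below it there, and WT 1 differs from WT 2 and WT 3 for genes such as *Col5a1*, *Col9a1* and *Col18a1*.

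*ACVR1* R206H with H3.1K27M was compared first with *ACVR1* WT with H3.1K27M. The 3 type V chains, the type VI chains *Col6a1* and *Col6a2*, the X-linked type IV chains and some of the enzymes were higher with R206H, and *Col18a1* was lower. Of the 43 genes, 40 reached a mean normalised count of 10 and were tested, and 22 of them passed an adjusted p of 0.05 (quasi-likelihood F test of edgeR, Benjamini-Hochberg adjustment over all genes tested, as for all adjusted p values given without another tool), 19 higher and 3 lower. Over all 15672 genes tested the share called was 20.3%, with 11.4% higher and 8.95% lower. The median log2 fold change of the 40 was 0.24, against 0.00 over all genes tested. By role, 6 fibrillar chains were higher and 1 lower of 10 tested, 2 network chains were higher of 8, all 3 that were called among types VI and VII were higher of 4, 2 FACIT chains were higher and 1 lower of 5, and 5 of the 10 enzymes were higher. The 13 calls that held whenever any one sample was left out were *Col5a1*, *Col5a3*, *Col11a2*, *Col4a5*, *Col4a6*, *Col6a1*, *Col6a2*, *Col9a3*, *Col12a1*, *Col23a1*, *Plod2* and *P4ha2*, all higher, and *Col18a1*, lower. The number called fell to 13 without replicate 3 (12.3% of all genes) and to 14 without replicate 2 (18.8%) of the group with both mutations, and was 15 to 17 without any one of the other 4 samples (12.8% to 19% of all genes). The receptor count moved with this comparison (*Acvr1* 1.91 on the log2 scale, adjusted p = 0.00045), and so did the summed levels of the 12 fibroblast and leptomeningeal markers, at 143.5 to 146 CPM with both mutations against 125 to 134 CPM, of the 7 microglial markers, at 1.98 to 3.03 CPM against 1.15 to 1.54 CPM and mostly *P2ry12*, of the 9 endothelial markers, at 6.63 to 8.82 CPM against 4.91 to 5.52 CPM, and of the 10 neural progenitor markers, at 8420.0 to 8736 CPM against 7489 to 7971 CPM, although *Nes* and *Olig2* of that list were lower (264 to 279 against 317 to 335 CPM and 745 to 761 against 819.7 to 933 CPM). Their part in the result was not tested. With one estimate of the spread over all 12 samples, which includes the *ACVR1* WT group, 2 members, *Col4a6* and *Plod2*, kept the call, where 2.85% of all genes were called.

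Samples with H3.1K27M had higher levels of *Col1a1*, *Col1a2*, *Col3a1*, *Col4a1*, *Col4a2*, *Col6a3*, *Col8a1* and *Col9a3*, among others, and lower levels of *Col11a1*, *Col16a1* and *Col4a6*, under both receptors. With *ACVR1* WT, 39 genes were tested, of which 13 were higher and 4 lower with H3.1K27M, where 23% of all 15385 genes tested were called, 12.6% higher and 10.4% lower. With *ACVR1* R206H, 40 were tested, of which 22 were higher and 7 lower, where 56.5% of all 15482 genes were called, 29.1% higher and 27.4% lower. By role, with *ACVR1* WT and R206H in turn, 4 and 8 of the 10 fibrillar chains, 4 of 7 and 3 of 8 network chains, 2 and 4 of the 4 type VI and VII chains, 1 and 3 of 5 FACIT chains, and 1 and 3 of the 5 lysyl oxidases were higher. Also higher were the transmembrane chain *Col25a1* with *ACVR1* WT and the lysyl hydroxylase *Plod2* with *ACVR1* R206H. Lower were 1 and 2 fibrillar, 1 and 2 network and 1 and 1 FACIT chains, 1 transmembrane chain with *ACVR1* WT, and 1 lysyl oxidase and 1 lysyl hydroxylase with *ACVR1* R206H. The median log2 fold change was 0.27 for the 39 (-0.02 over all genes) and 0.62 for the 40 (-0.00 over all genes). The 2 comparisons share no sample, whereas each shares 1 group with the R206H comparison above. Between them 11 members were higher in both, namely *Col1a1*, *Col1a2*, *Col3a1*, *Col5a3*, *Col4a1*, *Col4a2*, *Col8a1*, *Col6a3*, *Col7a1*, *Col9a3* and *Loxl1*, 3 were lower in both, namely *Col11a1*, *Col4a6* and *Col16a1*, and 0 were called in opposite directions. These are counts of the 39 members tested in both, and of all 15146 genes tested in both 12.2% were higher in both, 9.46% lower in both and 0.0396% opposite. Some members reached the test only through their level with H3.1K27M, their mean count without it being under 10, so that they had to differ to be tested: *Col1a2*, *Col4a4* and *Col25a1* among those called with *ACVR1* WT, and *Col1a2* and *Loxl4* among those called with *ACVR1* R206H. With *ACVR1* WT, 4 calls (*Col1a2*, *Col4a1*, *Col4a2* and *Col4a6*) held whenever any one sample was left out, and the number called was 32 without *ACVR1* WT replicate 1 (52.6% of all genes), 5 without its replicate 2 (9.36%), 11 without its replicate 3 (17.8%), and 4 or 5 without any one of the H3.1K27M samples (6.77% to 7.75%). With *ACVR1* R206H, 27 of the 29 held in every such fit. In the fit of all 12 samples the numbers called were 26 with *ACVR1* WT and 19 with *ACVR1* R206H (41% and 38.6% of all genes), and limma voom called 32 with *ACVR1* WT (60% of all genes). The summed level of the 7 microglial markers was also lower with H3.1K27M, at 1.15 to 1.54 CPM against 4.65 to 24.8 CPM with *ACVR1* WT, and at 1.98 to 3.03 CPM against 7.55 to 8.91 CPM with *ACVR1* R206H. Of that list *P2ry12* was instead higher with H3.1K27M in the *ACVR1* R206H samples without overlap, at 1.581 to 2.505 against 0.879 to 1.307 CPM. With *ACVR1* WT its groups overlapped. The 12 fibroblast and leptomeningeal markers summed to 125 to 134 CPM against 151 to 206.1 CPM, and to 143 to 146 CPM against 149.7 to 169.8 CPM. That sum is mostly *Prrx1*, *Fbln1* and *Thy1*, and 4 scarcer genes of the list, *Dcn*, *Lum*, *Ogn* and *Islr*, were instead higher with H3.1K27M without overlap under both receptors. *Islr* had 1.57 to 2.22 CPM against 0.284 to 0.88 CPM with *ACVR1* WT, and 6.41 to 7.36 CPM against 0.827 to 1.30 CPM with *ACVR1* R206H, while *Dcn*, *Lum* and *Ogn* stayed at or below 0.571 CPM. The 10 pericyte and smooth muscle markers, mostly *Notch3*, summed to 253 to 266 CPM against 200.1 to 224 CPM with *ACVR1* WT and to 240.1 to 267 CPM against 211 to 226 CPM with *ACVR1* R206H, higher with H3.1K27M. Of that list *Notch3*, *Acta2* and *Cnn1* were higher without overlap under both receptors. *Kcnj8* and *Anpep* were instead lower without overlap under both, at or below 0.112 and 0.277 CPM with H3.1K27M. The neural progenitor sum was higher with H3.1K27M without overlap with *ACVR1* R206H (8420.0 to 8736 against 7468 to 7584 CPM), mostly through *Vim* and *Slc1a3*, while *Sox2*, *Sox9* and *Hes5* of that list were lower (*Hes5* 8.52 to 9.79 against 60.0 to 75.8 CPM), and the endothelial and the chondrocyte and osteoblast sums overlapped. Within these, *Cdh5* and *Tek* were higher with H3.1K27M under both receptors without overlap, at or below 0.897 and 0.665 CPM, and *Flt1* (2.37 to 3.33 against 3.96 to 13.7 CPM with *ACVR1* WT) and *Cnmd* (0.198 to 0.428 against 0.474 to 3.18 CPM) were lower under both. *Acvr1* itself was higher with H3.1K27M, by 2.20 (adjusted p = 0.0074) and 3.23 (adjusted p = 1.3e-07) on the log2 scale. The part of the receptor count and of these cell types in the collagen differences was not tested.

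**Figure D2:**
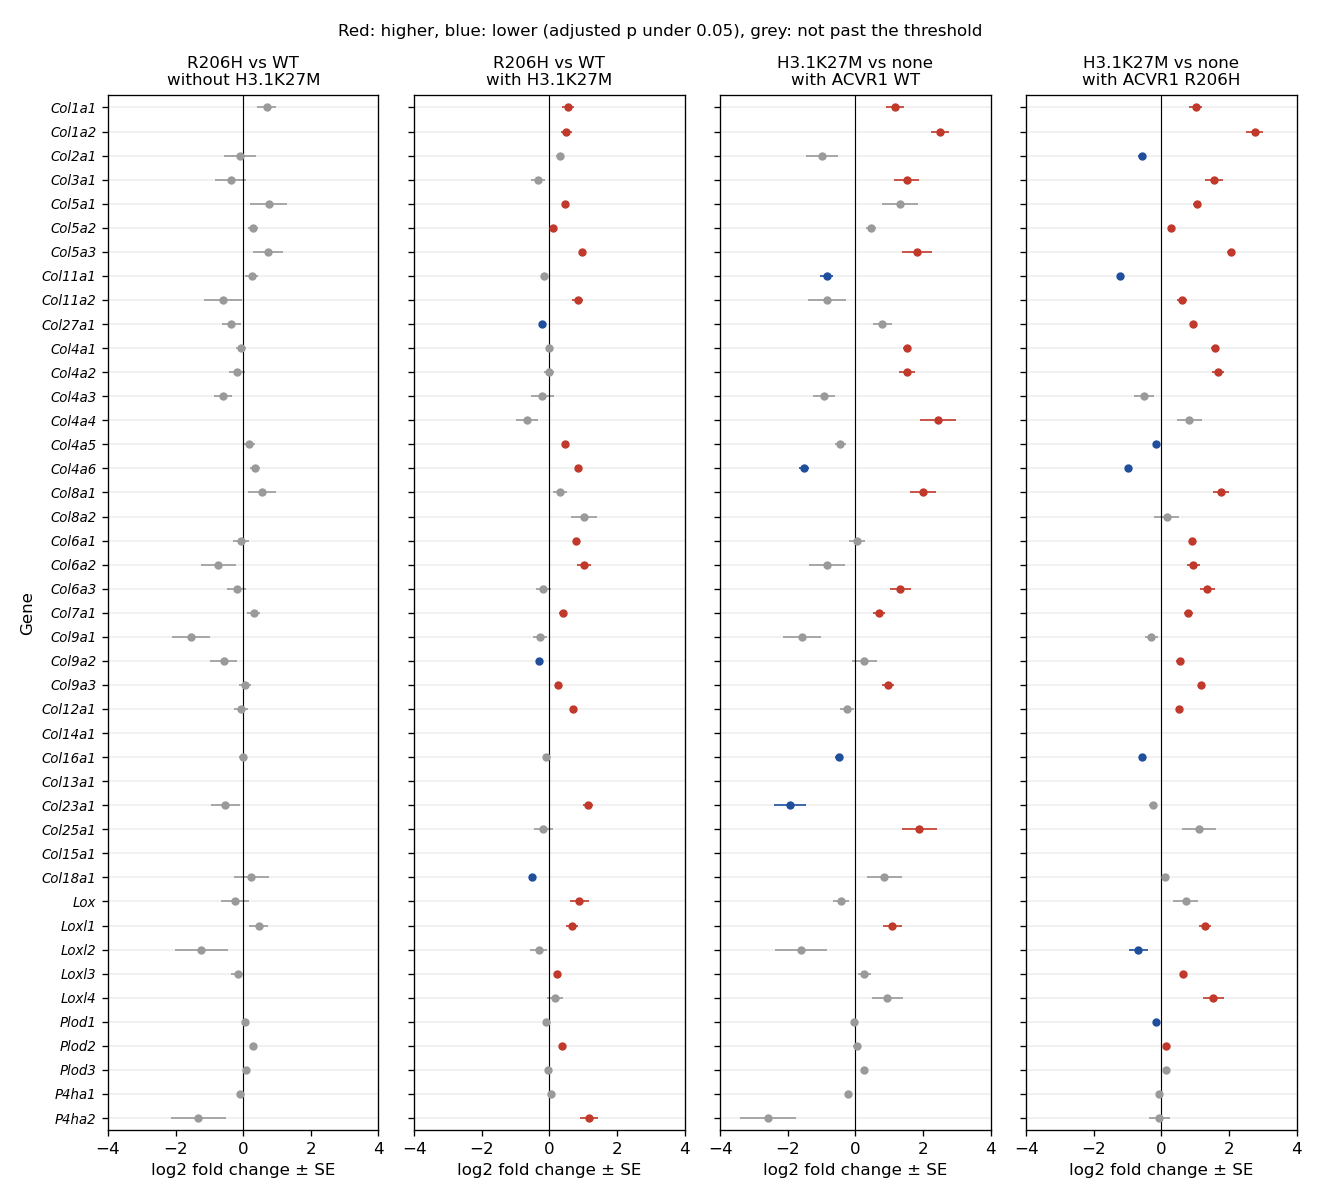
Log2 fold change with its standard error (horizontal axis) of each tested member (vertical axis, by role) in the 4 comparisons. No point in the first panel is coloured, 22 are coloured in the second, 17 in the third and 29 in the fourth (red for higher and blue for lower at an adjusted p of 0.05), and genes without a point did not reach the count minimum.

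Among the fibrillar collagens, type V chains regulate the diameter of collagen fibrils. *Col5a3* (ENSMUSG00000004098, chromosome 9, 20770050 to 20815067 of mm10, minus strand) encodes a less common chain of this type. It had 24.8, 9.75 and 7.28 CPM with *ACVR1* WT, 26.5, 18.4 and 24.3 CPM with *ACVR1* R206H, 50.1, 48.9 and 47.4 CPM with *ACVR1* WT and H3.1K27M, and 97.1, 84.8 and 101 CPM with both mutations. The 3 samples with both mutations lay above all others, the 3 with *ACVR1* WT and H3.1K27M came next, and the 2 groups without H3.1K27M overlapped through *ACVR1* WT replicate 1. R206H gave a log2 fold change of 0.96 (SE 0.06, adjusted p = 5.6e-07) in the H3.1K27M samples. That of H3.1K27M was 1.82 (SE 0.44, adjusted p = 0.03) with *ACVR1* WT and 2.05 (SE 0.11, adjusted p = 2.3e-08) with *ACVR1* R206H.

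The sequence before the start of *Col5a3* is shown because this gene had the smallest adjusted p of the fibrillar chains for R206H. It is the 250 bases upstream of the RefSeq start (GRCm38.p6, chr9:20815068-20815317, minus strand, read 5′ to 3′), none of which lie in a GENCODE exon, with matches to GGGCGG (the GC box) and CCAAT on either strand in capitals.
Col5a3: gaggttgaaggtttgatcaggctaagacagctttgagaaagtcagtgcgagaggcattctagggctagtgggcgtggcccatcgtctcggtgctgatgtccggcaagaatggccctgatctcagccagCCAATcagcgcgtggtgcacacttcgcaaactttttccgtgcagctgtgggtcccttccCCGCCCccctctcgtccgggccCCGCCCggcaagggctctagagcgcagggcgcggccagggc
It holds 2 GC box matches and 1 CCAAT match, and no match to GGCGCC, a palindromic element known to bind SMAD1 and SMAD5, or to TATAAA. Letters of GGGCGG and GGCGCC can overlap where both occur. Windows were available for 31 of the 43 members, and GGGCGG was found in 22, CCAAT in 12, GGCGCC in 5 and TATAAA in 4 of them. A member was counted if any of its windows held the letters. Among the 32851 windows of all genes the shares were 32.7%, 33.8%, 9.59% and 12.4%, counted per window and not per gene. The 5 with GGCGCC were *Col16a1*, *Col4a1*, *Col4a4*, *Col5a1* and *P4ha2*. A match describes these letters and is not evidence of binding.

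*Col5a1* (ENSMUSG00000026837, chromosome 2, 27886425 to 28039514) encodes the chain found in most type V trimers. It had 21.9, 7.37 and 4.79 CPM with *ACVR1* WT, 18.4, 15.3 and 23.2 with *ACVR1* R206H, 27.3, 30.8 and 26.4 with *ACVR1* WT and H3.1K27M, and 38.1, 39.0 and 39.1 with both mutations. As for *Col5a3*, the group with both mutations was the highest without overlap and *ACVR1* WT replicate 1 lay within the range of the *ACVR1* R206H samples. R206H changed it by a log2 fold change of 0.47 (SE 0.06, adjusted p = 0.00019) with H3.1K27M. The change with H3.1K27M was 1.04 (SE 0.11, adjusted p = 7.8e-06) with *ACVR1* R206H and 1.32 (SE 0.53, adjusted p = 0.12) with *ACVR1* WT, the latter not past the threshold. Its partner *Col5a2* (ENSMUSG00000026042, chromosome 1, 45374321 to 45503282) was expressed at a higher level per length and varied less, with 149.9, 101 and 113 CPM, 153, 139 and 150.4 CPM, 160.2, 170.4 and 165 CPM and 181, 176 and 179.8 CPM in the 4 groups in the same order. R206H changed it by 0.12 (SE 0.04, adjusted p = 0.043) with H3.1K27M, a call lost in each of the 6 fits that left out a sample, and H3.1K27M by 0.29 (SE 0.04, adjusted p = 0.00015) with *ACVR1* R206H.

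Type I collagen, the main fibril of bone, skin and scar, is built of *Col1a1* and *Col1a2*, and type III of *Col3a1*, and all 3 were low but higher with H3.1K27M. *Col1a2* (ENSMUSG00000029661, chromosome 6, 4504814 to 4541544) had 0.332, 0.363 and 0.538 CPM with *ACVR1* WT and 0.45, 0.31 and 0.678 CPM with *ACVR1* R206H, which rest on 7, 7 and 11 and on 9, 6 and 14 counts. With H3.1K27M it had 2.00, 2.62 and 2.38 CPM with *ACVR1* WT and 3.28, 3.29 and 3.25 CPM with *ACVR1* R206H. The groups with and without the mutant histone did not overlap, and the log2 fold changes were 2.5 (SE 0.26, adjusted p = 0.0026) and 2.76 (SE 0.25, adjusted p = 1.9e-06). *Col1a2* reached both tests only through its level with H3.1K27M, so that it had to differ to be tested. *Col1a1* (ENSMUSG00000001506, chromosome 11, 94936224 to 94953042) changed less, from 1.61, 1.24 and 0.929 CPM to 2.37, 3.52 and 2.57 CPM with *ACVR1* WT and from 2.10, 1.60 and 2.37 CPM to 3.37, 4.22 and 4.56 CPM with *ACVR1* R206H. Its log2 fold changes with H3.1K27M were 1.16 (SE 0.27, adjusted p = 0.028) and 1.01 (SE 0.19, adjusted p = 0.00071). *Col3a1* (ENSMUSG00000026043, chromosome 1, 45311538 to 45349706) had 0.379, 0.882 and 1.17 CPM and 0.7, 0.724 and 0.436 CPM without H3.1K27M, and 1.92, 2.28 and 2.69 CPM and 1.47, 2.02 and 1.91 CPM with it, for *ACVR1* WT and R206H in turn. The log2 fold changes of *Col3a1* were 1.51 (SE 0.38, adjusted p = 0.034) and 1.55 (SE 0.27, adjusted p = 0.00041). Between the receptors, with H3.1K27M, *Col1a1* and *Col1a2* were higher with R206H by 0.55 (adjusted p = 0.048) and 0.50 (adjusted p = 0.042) on the log2 scale, and *Col3a1* was at -0.34 (adjusted p = 0.27). DESeq2 did not call the first 2 (adjusted p = 0.084 and 0.14).

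Type XI and type II collagen form the thin fibrils of cartilage, and their chains did not move together: *Col11a1* was lower with H3.1K27M under both receptors and *Col2a1* with *ACVR1* R206H, whereas *Col11a2* was higher with R206H in the H3.1K27M samples. *Col11a1* (ENSMUSG00000027966, chromosome 3, 114030540 to 114220718) had 297, 186 and 194 CPM with *ACVR1* WT, 277, 245 and 279 with *ACVR1* R206H, 116, 126 and 133 with *ACVR1* WT and H3.1K27M, and 113, 116 and 108 with both mutations. All 6 samples with H3.1K27M lay below all 6 without it. The log2 fold changes with H3.1K27M were -0.84 (SE 0.19, adjusted p = 0.024) with *ACVR1* WT and -1.24 (SE 0.05, adjusted p = 5.9e-09) with *ACVR1* R206H. *Col2a1* fell with H3.1K27M in the *ACVR1* R206H samples, with a log2 fold change of -0.57 (SE 0.12, adjusted p = 0.0013), from 6.43 ± 0.401 to 4.30 ± 0.167 CPM (SD, n = 3), and with *ACVR1* WT the value was -0.98 (adjusted p = 0.18) with overlapping samples. *Col11a2* was higher with R206H in the H3.1K27M samples by 0.84 (SE 0.15, adjusted p = 0.0021) and with H3.1K27M in the R206H samples by 0.60 (SE 0.15, adjusted p = 0.0051). It had 7.83, 5.75 and 7.63 CPM with both mutations, 3.56, 3.62 and 4.71 with *ACVR1* WT and H3.1K27M, 4.05, 5.43 and 4.60 with *ACVR1* R206H, and 2.13, 7.11 and 12.3 with *ACVR1* WT, whose samples span the range of all others. *Col27a1*, a chain of developing cartilage, had 13.3, 29.2 and 27.4 CPM with *ACVR1* WT, 18.5, 19.6 and 16.2 with *ACVR1* R206H, 39.3, 37.7 and 43.2 with *ACVR1* WT and H3.1K27M, and 35.8, 34.8 and 32.9 with both mutations. It was higher with H3.1K27M in the *ACVR1* R206H samples (0.94, adjusted p = 6.9e-07) and lower with R206H in the H3.1K27M samples (-0.21, adjusted p = 0.029). Of 8 chondrocyte and osteoblast markers 1, *Runx2*, exceeded 1 CPM on average.

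**Figure D3:**
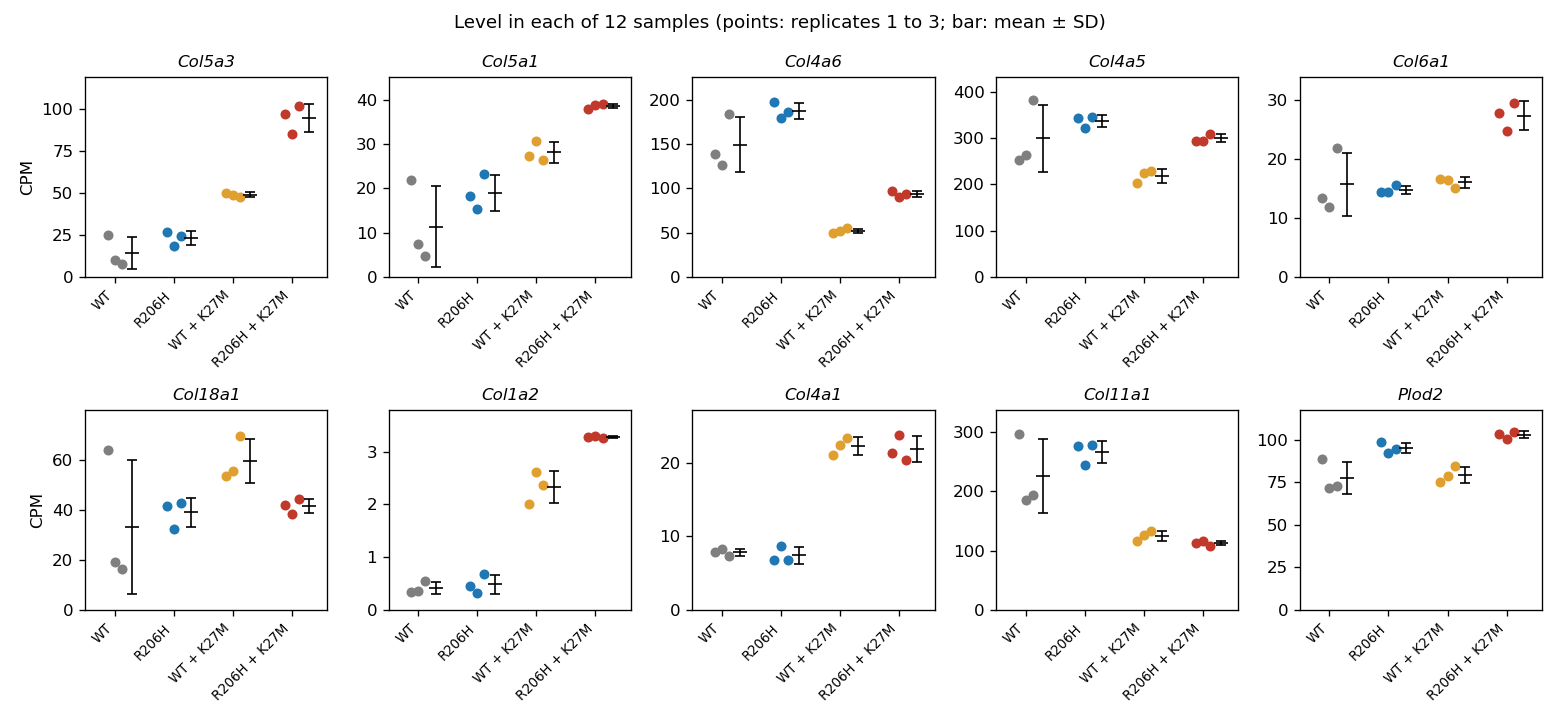
CPM (vertical axis, from 0) of 10 members in each of the 12 samples, with the mean and SD of each group beside the points (K27M stands for H3.1K27M). *Col5a3* and *Col5a1* are highest with both mutations, *Col4a6* is lowest in the WT + K27M group at 49.5 to 54.8 CPM, *Col4a1* and *Col1a2* separate by H3.1K27M, and *Col18a1* shows the gap between *ACVR1* WT replicate 1 (64.0 CPM) and replicates 2 and 3.

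The 6 type IV chains form basement membranes in 3 kinds of trimer, and the gene pairs behaved differently. *Col4a1* (ENSMUSG00000031502, chromosome 8, 11198423 to 11312826) and *Col4a2* (ENSMUSG00000031503, chromosome 8, 11312805 to 11449287), which make the trimer of nearly all basement membranes, run in opposite directions from starts that share 22 bases of exon. *Col4a1* had 7.82, 8.35 and 7.28 CPM with *ACVR1* WT, 6.80, 8.74 and 6.73 with *ACVR1* R206H, 21.1, 22.6 and 23.4 with *ACVR1* WT and H3.1K27M, and 21.5, 23.9 and 20.5 with both mutations. *Col4a2* had 2.32, 3.99 and 2.88 CPM, 2.70, 2.43 and 2.95 CPM, 8.43, 10.1 and 7.48 CPM and 6.46, 10.01 and 8.90 CPM in that order. Every sample with H3.1K27M lay above every sample without it for both genes. The log2 fold changes were 1.53 (SE 0.11, adjusted p = 0.001) and 1.58 (SE 0.11, adjusted p = 1.7e-07) for *Col4a1* and 1.51 (SE 0.24, adjusted p = 0.0084) and 1.66 (SE 0.18, adjusted p = 7.9e-06) for *Col4a2*, with *ACVR1* WT and R206H in turn. R206H itself left both near -0.02 with H3.1K27M (SE 0.07 and 0.15), and these were not past the threshold.

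*Col4a5* and *Col4a6*, which make a trimer of smooth muscle and epithelial basement membranes, lie head to head on the X chromosome with RefSeq starts 1343 bases apart. *Col4a6* (ENSMUSG00000031273, chromosome X, 141165403 to 141474076) had 139, 126 and 184 CPM with *ACVR1* WT, 198, 179.5 and 186 with *ACVR1* R206H, 49.5, 51.2 and 54.8 with *ACVR1* WT and H3.1K27M, and 97.6, 90.1 and 93.6 with both mutations. The samples with H3.1K27M were lower than those without it, and among them the R206H samples were higher without overlap. Its log2 fold change with H3.1K27M was -1.52 (SE 0.15, adjusted p = 0.0023) with *ACVR1* WT and -0.99 (SE 0.05, adjusted p = 1.4e-08) with *ACVR1* R206H. R206H raised it by 0.86 (SE 0.05, adjusted p = 2.3e-07) with H3.1K27M, the smallest adjusted p among the 40 members tested. *Col4a5* (ENSMUSG00000031274, chromosome X, 141475385 to 141689234) had 253, 264 and 384 CPM, 343, 322 and 345 CPM, 202, 224 and 229 CPM and 294, 295 and 310.4 CPM in the same order, and was higher with R206H in the H3.1K27M samples by 0.46 (SE 0.05, adjusted p = 2.9e-05). *Col4a5* was lower with H3.1K27M in the *ACVR1* R206H samples, at -0.16 (SE 0.04, adjusted p = 0.0098), and the value with *ACVR1* WT was -0.45 (SE 0.17, adjusted p = 0.1), not past the threshold.

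Upstream sequences of this pair are shown because the genes are neighbours and both rose with R206H in the H3.1K27M samples. For *Col4a6* they are the 250 bases before the RefSeq start (GRCm38.p6, chrX:141474077-141474326, minus strand). For *Col4a5* they are 216 bases (chrX:141475169-141475384, plus strand), up to the first base that GENCODE places in an exon. Both run 5′ to 3′, and capitals mark matches to GGGCGG or CCAAT on either strand.
Col4a6: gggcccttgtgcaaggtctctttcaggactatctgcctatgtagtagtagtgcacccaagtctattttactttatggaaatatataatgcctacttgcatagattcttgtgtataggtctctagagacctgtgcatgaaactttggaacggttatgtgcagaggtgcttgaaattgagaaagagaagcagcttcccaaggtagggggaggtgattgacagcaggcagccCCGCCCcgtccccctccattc
Col4a5: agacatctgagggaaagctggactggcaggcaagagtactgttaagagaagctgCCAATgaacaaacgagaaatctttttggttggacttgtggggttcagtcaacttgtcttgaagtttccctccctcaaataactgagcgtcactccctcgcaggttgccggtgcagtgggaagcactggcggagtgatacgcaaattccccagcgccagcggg
*Col4a6* has 1 GC box match close to its start and no CCAAT match. *Col4a5* has 1 CCAAT match in the stretch shown and 1 GC box match in the transcribed bases that follow it. Neither 250-base window holds GGCGCC or TATAAA. The G and C content was 47.6% for *Col4a6* and 54% for *Col4a5*, against 62.8% for *Col5a3* and a median of 52.4% over all windows.

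The remaining network chains were scarce. *Col4a4* had 0.0948, 0.156 and 0.342 CPM (2, 3 and 7 counts) with *ACVR1* WT and 1.47, 1.14 and 0.633 CPM with *ACVR1* WT and H3.1K27M, which the fit put at 2.43 (SE 0.53, adjusted p = 0.022). It reached this test only through its level with H3.1K27M. With *ACVR1* R206H it had 0.55, 0.207 and 0.387 CPM without and 0.522, 0.747 and 0.748 CPM with H3.1K27M, and the groups overlapped. *Col4a3* was between -0.60 and -0.20 on the log2 scale for R206H without and with H3.1K27M and was called in none of the 4 comparisons. *Col8a1*, a chain of short-chain networks below endothelia, had 0.284, 0.467 and 0.88 CPM with *ACVR1* WT, 0.85, 0.724 and 0.823 with *ACVR1* R206H, 2.25, 1.81 and 2.49 with *ACVR1* WT and H3.1K27M, and 2.37, 2.42 and 3.33 with both mutations. Its 6 samples with H3.1K27M lay above the 6 without it, with log2 fold changes of 2.01 (SE 0.38, adjusted p = 0.015) and 1.77 (SE 0.24, adjusted p = 4.8e-05). Its partner *Col8a2* had 0.0474, 0.311 and 0.538 CPM, 0.75, 0.31 and 0.581 CPM, 0.327, 0.381 and 0.198 CPM and 0.475, 0.527 and 0.785 CPM in that order, was tested in the 2 comparisons that include both mutations, and was not called.

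Type VI collagen forms beaded filaments close to cell surfaces. *Col6a1* and *Col6a2* rose with R206H in the H3.1K27M samples, and also with H3.1K27M in the *ACVR1* R206H samples. *Col6a3* rose with H3.1K27M under either receptor. *Col6a1* (ENSMUSG00000001119, chromosome 10, 76708792 to 76726168) had 13.4, 11.8 and 21.8 CPM with *ACVR1* WT, 14.4, 14.5 and 15.6 with *ACVR1* R206H, 16.7, 16.5 and 15.0 with *ACVR1* WT and H3.1K27M, and 27.8, 24.7 and 29.6 with both mutations. The samples with both mutations lay above the other 9, and R206H with H3.1K27M gave 0.78 (SE 0.08, adjusted p = 2e-05). H3.1K27M gave 0.90 (SE 0.08, adjusted p = 1.9e-06) with *ACVR1* R206H and 0.05 (SE 0.23, adjusted p = 0.91) with *ACVR1* WT. *Col6a2* (ENSMUSG00000020241, chromosome 10, 76595762 to 76623630) had 2.05, 1.81 and 3.25 CPM with *ACVR1* WT and H3.1K27M and 4.70, 4.26 and 5.5 CPM with both mutations, a change of 1.02 (SE 0.20, adjusted p = 0.0031). Without H3.1K27M it had 1.94, 3.11 and 7.72 CPM with *ACVR1* WT and 1.80, 2.95 and 2.86 CPM with *ACVR1* R206H, so that *ACVR1* WT replicate 3 was the highest of the 12 samples. *Col6a3* had 1.42, 2.28 and 2.54 CPM, 1.35, 2.02 and 2.03 CPM, 3.76, 4.90 and 6.89 CPM and 4.98, 3.47 and 5.27 CPM in the order of *Col6a1*. Its log2 fold changes with H3.1K27M were 1.33 (SE 0.31, adjusted p = 0.028) and 1.36 (SE 0.21, adjusted p = 0.0002), and that of R206H with H3.1K27M was -0.17 (adjusted p = 0.62). *Col7a1*, the anchoring fibril chain of skin, was called in the same 3 comparisons as *Col1a1*, at 0.40, 0.70 and 0.80, with a highest level of 5.65 CPM.

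Type IX collagen decorates type II fibrils and has a chain from each of *Col9a1*, *Col9a2* and *Col9a3*. *Col9a3* (ENSMUSG00000027570, chromosome 2, 180597790 to 180622189) had 63.3, 87.9 and 106 CPM with *ACVR1* WT, 81.4, 92.6 and 89.7 with *ACVR1* R206H, 175, 165 and 156 with *ACVR1* WT and H3.1K27M, and 199.8, 189 and 201 with both mutations. The 6 samples with H3.1K27M were above the 6 without it, and those with both mutations were the highest. The log2 fold changes were 0.96 (SE 0.18, adjusted p = 0.014) and 1.17 (SE 0.05, adjusted p = 6.3e-09) for H3.1K27M and 0.26 (SE 0.05, adjusted p = 0.0022) for R206H with H3.1K27M. *Col9a2* had 4.84, 13.2 and 14.1 CPM, 6.20, 8.33 and 6.73 CPM, 14.5, 12 and 11.7 CPM and 10.5, 10.4 and 9.94 CPM in the same order. It was higher with H3.1K27M in the *ACVR1* R206H samples (0.55, adjusted p = 0.0014) and lower with R206H in the H3.1K27M samples (-0.31, adjusted p = 0.039). *Col9a1* had 3.56, 8.66 and 18.0 CPM with *ACVR1* WT and lay between 2.28 and 3.97 CPM in the other 9 samples, and it was not called in any comparison. In the other FACIT chains, *Col12a1* was higher with both mutations than in either group with 1 of them, at 19.6 ± 1.30 CPM (SD, n = 3) against 12.2 ± 0.859 CPM (0.70, adjusted p = 5.7e-05) and 13.9 ± 1.32 CPM (0.51, adjusted p = 0.00035). With *ACVR1* WT it had 10.6, 14.8 and 18.6 CPM, of which the last lay above the lowest sample with both mutations (18.4 CPM). *Col16a1* was lower with H3.1K27M under both receptors, at -0.49 (adjusted p = 0.025) and -0.59 (adjusted p = 1.1e-05), from 162 ± 22.8 to 115 ± 4.13 and from 161 ± 15.2 to 107 ± 6.02 CPM. *Col14a1* was too low to be tested.

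Of the transmembrane collagens, *Col23a1* (ENSMUSG00000063564, chromosome 11, 51289920 to 51583918) had 6.54, 16.1 and 24.3 CPM with *ACVR1* WT, 9.75, 11.3 and 11.2 with *ACVR1* R206H, 3.76, 5.14 and 3.37 with *ACVR1* WT and H3.1K27M, and 8.69, 7.73 and 10.2 with both mutations. Its lowest group was *ACVR1* WT with H3.1K27M, and all 3 samples of that group lay below all others. With *ACVR1* WT, H3.1K27M changed it by -1.93 (SE 0.47, adjusted p = 0.032), a call lost in 5 of the 6 fits that left out a sample, and R206H raised it by 1.15 (SE 0.16, adjusted p = 0.00024) with H3.1K27M. *Col25a1*, a chain that was first isolated from amyloid plaques, had 8, 2 and 2 counts with *ACVR1* WT, or 0.379, 0.104 and 0.0977 CPM, and 0.736, 0.904 and 0.594 CPM with *ACVR1* WT and H3.1K27M (1.90, adjusted p = 0.042). It reached this test only through its level with H3.1K27M. With *ACVR1* R206H it had 0.65, 0.103 and 0.145 CPM without and 0.617, 0.571 and 0.748 CPM with H3.1K27M, and these overlapped. *Col13a1* did not exceed 0.19 CPM. *Col18a1*, the basement membrane collagen whose C-terminal fragment is endostatin, was chosen for description after its values were seen. It had 64.0, 19.0 and 16.2 CPM with *ACVR1* WT, 41.6, 32.3 and 42.8 with *ACVR1* R206H, 53.5, 55.3 and 69.4 with *ACVR1* WT and H3.1K27M, and 41.8, 38.4 and 44.2 with both mutations. In the H3.1K27M samples it was lower with R206H without overlap, at -0.51 (SE 0.09, adjusted p = 0.0015), and it was not called for H3.1K27M under either receptor. *Col15a1* did not exceed 0.571 CPM and was not tested.

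Lysyl oxidases were expressed at low levels apart from *Loxl3*. *Loxl1*, known for its part in elastic fibers, had 3.18, 2.33 and 2.25 CPM with *ACVR1* WT, 3.65, 2.43 and 4.55 with *ACVR1* R206H, 7.44, 5.04 and 3.92 with *ACVR1* WT and H3.1K27M, and 9.16, 7.82 and 8.97 with both mutations. The samples with both mutations were the highest, with 0.67 (SE 0.18, adjusted p = 0.02) for R206H and 1.29 (SE 0.17, adjusted p = 5.7e-05) for H3.1K27M, and the value for H3.1K27M with *ACVR1* WT was 1.09 (SE 0.29, adjusted p = 0.039). *Loxl4* had 0.4, 0.259 and 0.291 CPM with *ACVR1* R206H and 0.949, 0.922 and 0.897 CPM with both mutations (1.54, adjusted p = 0.0013). It reached this test only through its level with H3.1K27M. With *ACVR1* WT it had 0.711, 0.156 and 0.391 CPM without and 0.818, 0.761 and 0.871 CPM with H3.1K27M (0.95, adjusted p = 0.18). *Lox*, the founding enzyme of the family, rose with R206H in the H3.1K27M samples by 0.89 (adjusted p = 0.046) at 1.15 ± 0.294 against 0.615 ± 0.121 CPM, and *Loxl3* by 0.22 (adjusted p = 0.048) at 19.3 ± 0.905 against 16.7 ± 1.00 CPM. Both calls were lost in each of the 6 fits that left out a sample. *Loxl3* was also higher with H3.1K27M in the *ACVR1* R206H samples (0.64, adjusted p = 3.1e-05), from 12.5 ± 1.01 CPM, and that call held in all 6. *Loxl2*, which can also act in the nucleus, was lower with H3.1K27M in the *ACVR1* R206H samples (-0.68, adjusted p = 0.049), a call kept in 1 of the 6 fits that left out a sample.

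The hydroxylases were among the more abundant members and moved little, with *P4ha2* as the exception. *Plod2*, which hydroxylates lysines of the telopeptides and was chosen for description after its values were seen, had 88.5, 71.8 and 72.7 CPM with *ACVR1* WT, 98.6, 92.5 and 94.5 with *ACVR1* R206H, 74.9, 79.0 and 84.4 with *ACVR1* WT and H3.1K27M, and 103, 101 and 105 with both mutations. R206H samples lay above WT samples in both backgrounds without overlap. The log2 fold changes for R206H were 0.30 (SE 0.10, adjusted p = 0.94) without and 0.38 (SE 0.05, adjusted p = 0.00014) with H3.1K27M, of which the first was not past the threshold. *Plod2* was also called higher with H3.1K27M in the *ACVR1* R206H samples, a call that did not hold in every fit that left out a sample. *Plod1* and *Plod3* stayed within 133 to 161 CPM and 76.6 to 103 CPM over the 12 samples, and the one call among them was *Plod1* with H3.1K27M in the *ACVR1* R206H samples (-0.16, adjusted p = 0.0082). *P4ha1* stayed within 74.7 to 101 CPM and was not called. *P4ha2* (ENSMUSG00000018906, chromosome 11, 54100095 to 54131665) had 0.521, 3.01 and 6.30 CPM with *ACVR1* WT, 1.35, 1.81 and 0.726 with *ACVR1* R206H, 0.614, 0.476 and 0.515 with *ACVR1* WT and H3.1K27M, and 1.28, 1.36 and 1.05 with both mutations. It rose with R206H in the H3.1K27M samples by 1.19 (SE 0.26, adjusted p = 0.0069), and the 3 *ACVR1* WT samples spanned more than the other 3 groups together. Exons of *Loxl3* and *Plod3* overlap those of other genes over 11.6% and 11.9% of their length, and reads from such stretches were left out or cannot be told apart by strand.

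Without H3.1K27M, R206H was compared with *ACVR1* WT in the other 6 samples. Here 35 members were tested and 0 passed, as did 0% of all 15066 genes tested. At an unadjusted p of 0.05, 3 members (*Col1a1*, *Col9a1* and *Plod2*) and 3.54% of all genes lay below it, DESeq2 called 0 members and 0.173% of all genes, and limma voom with sample quality weights, which can give a deviating sample less weight, called 13 members and 24.4% of all genes. *Plod2* was also the one member whose groups did not overlap, where 9.61% of all genes had groups that did not overlap. The 35 had a median log2 fold change of -0.07 (-0.01 over all genes). The 8 members not tested were *Col1a2*, *Col4a4*, *Col8a2*, *Col13a1*, *Col14a1*, *Col15a1*, *Col25a1* and *Loxl4*.

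This outcome depended on *ACVR1* WT replicate 1. Without it, 15 of the 35 members passed, where 23.1% of all genes did, with 6 higher (12.1% of all genes were; *Col5a1*, *Col5a2*, *Col5a3*, *Col11a1*, *Col18a1* and *Plod2*) and 9 lower (11% of all genes; *Col2a1*, *Col11a2*, *Col27a1*, *Col4a3*, *Col9a1*, *Col9a2*, *Col23a1*, *Loxl2* and *P4ha2*) with R206H. For *Col5a1* the log2 fold change went from 0.75 (adjusted p = 0.94) to 1.66 (adjusted p = 0.0041), and for *Col5a3* from 0.73 (adjusted p = 0.94) to 1.45 (adjusted p = 0.0034). *Col18a1* went from 0.24 (adjusted p = 0.95) to 1.16 (adjusted p = 0.0031), and *Col9a1* from -1.55 (adjusted p = 0.94) to -1.96 (adjusted p = 0.0048). In these 4 genes *ACVR1* WT replicate 1 lay inside the range of the *ACVR1* R206H samples or beyond it, away from the other *ACVR1* WT samples. Leaving out any other sample of this comparison gave 0 calls among the members. *Nes*, 1 of the 10 neural progenitor markers, had 407 CPM in *ACVR1* WT replicate 1 and 132 and 73.0 CPM in replicates 2 and 3. With *ACVR1* R206H it had 235 to 275 CPM. What sets replicate 1 apart was not tested, nor was the part of *Nes*.

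The interaction fit asked whether the effect of R206H differed with H3.1K27M. Of 39 members tested 0 passed, and 0.0712% of all 15445 genes did. At an unadjusted p of 0.05 there were 9 members and 7.66% of all genes, DESeq2 called 0 members and 0.622% of all genes, and limma voom with sample quality weights called 18 members and 29.5% of all genes. The largest values of those 9 were 2.52 (SE 0.97, adjusted p = 0.61) for *P4ha2*, 1.77 (SE 0.61, adjusted p = 0.55) for *Col6a2* and 1.67 (SE 0.52, adjusted p = 0.48) for *Col23a1*. Without *ACVR1* WT replicate 1, 17 members passed, 13 higher and 4 lower, where 26.6% of all genes did, 13.6% higher and 13% lower. Among these were *Col23a1* at 2.06 (adjusted p = 0.00015), *Col18a1* at -1.66 (adjusted p = 7.8e-05), *Col6a1* at 0.97 (adjusted p = 0.0087), *Col12a1* at 0.96 (adjusted p = 0.00063) and *Col5a1* at -1.18 (adjusted p = 0.002). *Col5a3*, at 0.23 (adjusted p = 0.88) with every sample and -0.48 (adjusted p = 0.082) without that sample, passed in neither fit. A p that misses the threshold here does not show that the R206H effects were alike.

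**Figure D4:**
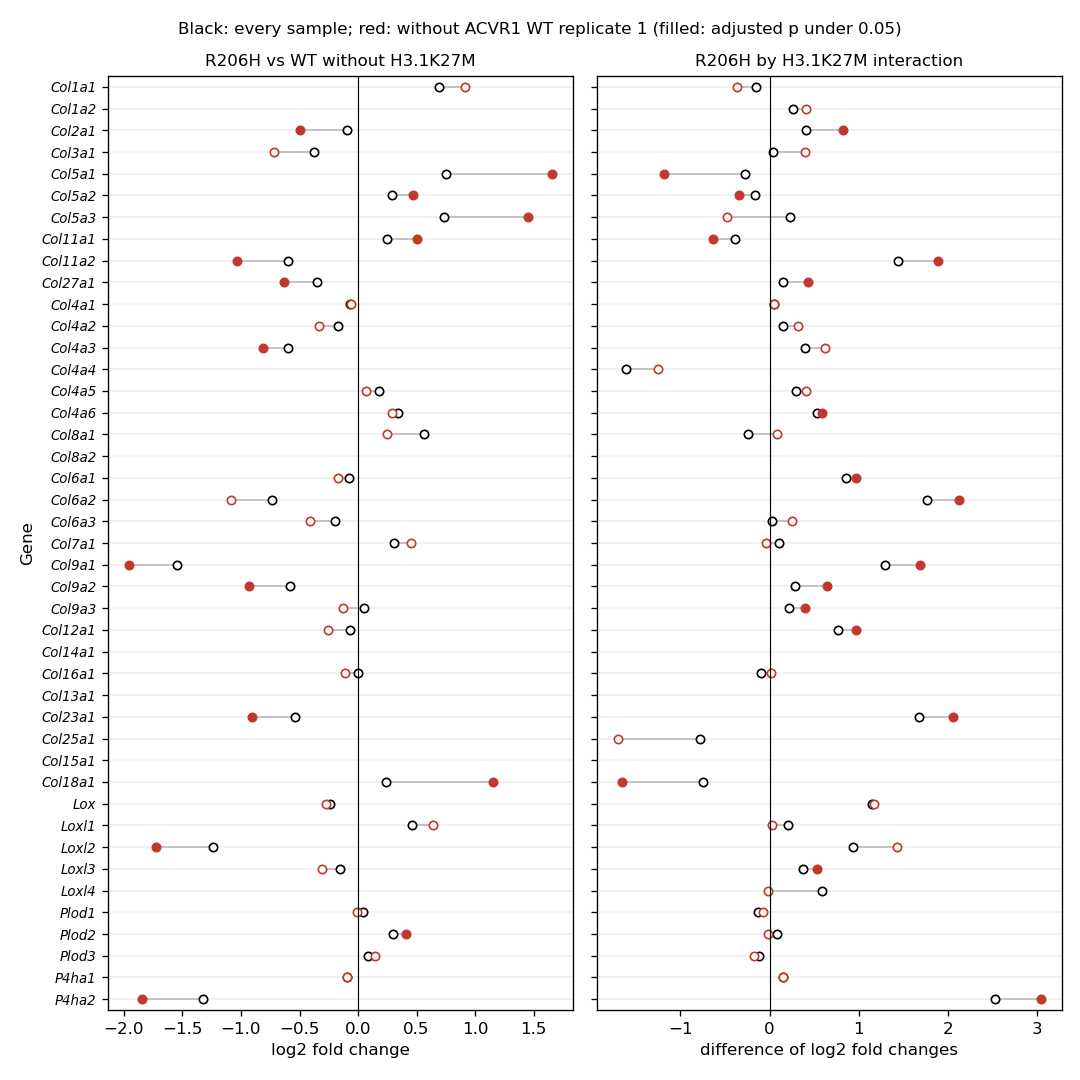
Log2 fold change of R206H without H3.1K27M (left) and the difference between the R206H effects with and without H3.1K27M (right) for each tested member, fitted on every sample (black) and without *ACVR1* WT replicate 1 (red, filled at an adjusted p of 0.05). 15 points on the left and 17 on the right are filled, and 0 members passed in either fit of every sample.

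Other genes of collagen synthesis, binding and degradation were counted on a list of 36. With H3.1K27M, R206H raised 14 and lowered 1 (*Crtap*) of 34 tested, beside the 11.4% and 8.95% of all genes given above, and without it 0 of 34 were called by edgeR (1 at an unadjusted p of 0.05). Without *ACVR1* WT replicate 1 that number was 10, of which 8 were higher and 2 (*P4ha3* and *Pxdn*) lower with R206H, where 23.1% of all genes were called. Limma voom with sample quality weights called 12 of the 34, 11 higher and 1 lower (24.4% of all genes). For R206H with H3.1K27M, the smallest adjusted p values were those of the prolyl 3-hydroxylase *P3h2* at 1.1 (SE 0.09, adjusted p = 4e-06), the collagen galactosyltransferase *Colgalt2* at 0.60 (SE 0.06, adjusted p = 1.6e-05), and the collagen receptors *Itga1* at 0.73 (SE 0.08, adjusted p = 3.7e-05) and *Ddr2* at 0.48 (SE 0.07, adjusted p = 0.00035). Next came *P4ha3*, *Fkbp10*, *Pcolce* and *Itga2*, at 0.89, 0.47, 0.75 and 0.76, all higher. With a single estimate of the spread over all 12 samples 3 of these 15 calls (*Colgalt2*, *Itga10* and *P3h2*) were kept, where 2.85% of all genes were called. With any single sample left out the number called was 8 to 16. The lowest came without replicate 3 of the group with both mutations (12.3% of all genes), the highest without replicate 3 of *ACVR1* WT with H3.1K27M (19%). H3.1K27M raised 10 and lowered 1 of 33 with *ACVR1* WT (33.3% called, against 23% of all genes), and raised 21 and lowered 4 of 34 with *ACVR1* R206H (73.5% called, against 56.5% of all genes). With *ACVR1* WT the number called was 26 without *ACVR1* WT replicate 1 (52.6% of all genes) and 6 without its replicate 2 (9.36%), 10 without its replicate 3 (17.8%) and 5 to 7 without any one of the H3.1K27M samples (6.77% to 7.75%). In the fit of all 12 samples it was 21 with *ACVR1* WT and 15 with *ACVR1* R206H (41% and 38.6%). With *ACVR1* WT, DESeq2 called 17 (29.4% of all genes) and limma voom called 26 (60%). The collagen chaperone *Fkbp10* rose by 1.97 and 2.51 on the log2 scale, from 8.51 ± 1.86 to 33.0 ± 2.64 CPM and from 8.07 ± 0.989 to 45.5 ± 4.54 CPM. The transcription factor *Creb3l1*, known to act on collagen genes, rose by 2.38 and 2.10, and *Adamts2*, which removes the N-propeptide of fibrillar collagens, by 2.15 and 1.78. The others with the smallest adjusted p were *Adamts3*, *Bmp1*, *P3h4*, *Serpinh1* and *Ctsk* with *ACVR1* WT, at 1.71, 0.50, 0.72, 0.45 and 1.1, and *Colgalt2*, *P3h4*, *Sec24d* and *Pcolce* with *ACVR1* R206H, at 1.13, 0.90, 0.68 and 1.80. *Pxdn*, the peroxidasin that cross-links type IV collagen, was lower with H3.1K27M under both receptors, at -1.26 (adjusted p = 0.032) and -0.91 (adjusted p = 7.8e-07), the former in 1 of the 6 fits that left out a sample.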

How the data were processed

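Read pairs had been placed on the mm10 genome in Galaxy by the authors, using RNA-STAR (version 2.6.0b-1 in the submitters' processing notes), who deposited HTSeq counts per Ensembl gene, made without strand, in union mode and with reads placed at several sites or genes left out. The deposited counts are whole numbers that were not normalised. Without strand, reads of overlapping and antisense genes cannot be told apart.

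Samples were grouped by the labels, 3 in each group. CPM and tests used edgeR 4.0.16 in R 4.3.3, with TMM scaling, genes with a mean normalised count of at least 10, the quasi-likelihood F test on the 6 samples of each comparison (12 for the interaction) and Benjamini-Hochberg adjustment over all genes tested at 0.05. The procedure was tested on simulated data in which all samples of a comparison shared the same spread per gene. That setting holds no sample that stands apart, as *ACVR1* WT replicate 1 does, and so does not cover it. DESeq2 1.42.0, limma 3.58.1, other filters and scalings, fits on all 12 samples, a replicate block and fits without each sample in turn were alternatives. Exons came from GENCODE M21 and upstream sequences from RefSeq (GRCm38.p6), where 31 of 43 members matched by symbol.

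The members, the 36 other collagen genes and the marker lists were chosen with earlier results of these data known. Values in every sample are given for the 20 called members with the largest change in a comparison they passed and for named trimer partners (types I, V, VI, VIII and IX, and *Col4a1* with *Col4a2*), and other members are given by ranges and counts. Depth was 19315020 to 26456257 counts per sample.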

Additional observations from a re-analysis of the deposited data

How the results depend on the processing

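The number of members called kept within 1.5 times of its main value with DESeq2 (15 for R206H with H3.1K27M, 22 and 27 for H3.1K27M with *ACVR1* WT and R206H, where 16.1%, 29.4% and 50% of all genes were called), with DESeq2 size factors and with either filter on low counts. Apart from the replicate block (H3.1K27M with *ACVR1* WT, next paragraph), the exceptions were limma voom with sample quality weights (13 for R206H without H3.1K27M, 32 for H3.1K27M with *ACVR1* WT, 18 for the interaction) and the fit of all 12 samples (2 for R206H with H3.1K27M, 26 and 19 for H3.1K27M with *ACVR1* WT and R206H). Leaving out each sample in turn gave 0 to 15 for R206H without H3.1K27M, 13 to 17 with it, 4 to 32 and 27 to 29 for H3.1K27M with *ACVR1* WT and R206H, and 0 to 17 for the interaction. The cause was not tested, although fits without a sample have fewer samples. Over all genes, R206H without H3.1K27M went from 0 called to 26 (DESeq2), 3683 (voom), 11 (all 12 samples) and up to 3485 (without a sample). R206H with H3.1K27M went from 3185 to 440 (all 12 samples) and down to 1915 (without a sample). H3.1K27M with *ACVR1* WT went from 3533 to 9234 (voom), 6335 (all 12 samples), 2023 (replicate block) and 1037 to 8115 (without a sample). H3.1K27M with *ACVR1* R206H went from 8745 to 5963 (all 12 samples) and 7589 to 8350 (without a sample). The interaction went from 11 to 96 (DESeq2), 4550 (voom), 18 (no filter), 2 (replicate block) and 3 to 4112 (without a sample). 

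With the replicate number as a block, 11 members were called for H3.1K27M with *ACVR1* WT (13.1% of all genes), 20 for R206H with H3.1K27M (21.3%), 28 for H3.1K27M with *ACVR1* R206H (55.6%), and 0 for the others. On the list of 36 other collagen genes, 7 of the 11 calls for H3.1K27M with *ACVR1* WT were kept, without *Colgalt2*, *Ctsk*, *Fkbp14* and *Serpinh1*. Samples with the same number were not shown to be paired: the correlations of their deviations were 0.31, 0.42 and -0.14 for R206H without H3.1K27M and between -0.05 and 0.09 in the other 3 comparisons. The block turned *Col2a1* to 0.082 (log2) for R206H without H3.1K27M.

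Among members past the threshold in at least 1 fit of a comparison, the sign changed elsewhere only in the fits below, and there not past the threshold in the turned direction. Without each sample in turn, the log2 fold change for R206H without H3.1K27M ran from -0.50 to 0.26 for *Col2a1*, from -1.04 to 0.038 for *Col11a2* and from -0.088 to 1.16 for *Col18a1*, each end being reached without an *ACVR1* WT sample. The interaction ran from -1.18 to 0.087 for *Col5a1* and from -0.042 to 0.43 for *Col27a1*, likewise. Among the other collagen genes, *Itga1* with H3.1K27M and *ACVR1* WT went from -0.14 to 0.69 (adjusted p = 0.004) without *ACVR1* WT replicate 1. Leaving out a sample lost at least once 9 of the 22 calls for R206H with H3.1K27M, and 13 of 17 and 2 of 29 for H3.1K27M with *ACVR1* WT and R206H. Members under 1 CPM rest on few counts, which limits what can be detected for them.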

Other observations

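Of 12 further collagen genes outside the list of 43, which were chosen with earlier results known, most were scarce. *Col22a1*, a FACIT collagen of tissue junctions, had the highest CPM of the 12, although per kb of exon *Col20a1* stood above it (0.49 against 0.394 CPM per kb over the 12 samples). It had 0.758, 0.519 and 0.635 CPM with *ACVR1* WT, 1.5, 1.09 and 0.92 CPM with *ACVR1* R206H, 5.15, 5.04 and 5.42 CPM with *ACVR1* WT and H3.1K27M, and 7.12, 7.29 and 8.11 CPM with both mutations. The 6 samples with H3.1K27M lay above the 6 without it, and those with both mutations were the highest. *Col26a1* had 0.853, 2.18 and 2.10 CPM, 1.95, 1.40 and 1.07 CPM, 4.66, 4.04 and 4.28 CPM, and 2.99, 2.85 and 2.73 CPM in the same order, and its highest group was *ACVR1* WT with H3.1K27M. *Col20a1* lay between 0.901 and 3.64 CPM with overlapping groups. *Col10a1*, the hypertrophic cartilage collagen, stayed at or below 0.777 CPM.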
